A study of Mus musculus with 9 samples.

Results

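Adenylate kinases and creatine kinases move phosphate between nucleotides and creatine, and 7 of their genes were followed in MIN6 cells, insulin-producing cells of a mouse insulinoma that stand in for pancreatic beta cells. The genes were Ak1, Ak3, Ak4, Ak5, Ak6, Ckb and Ckmt1, out of 52408 genes in the deposited table, and all 7 passed the filter for testing along with 11943 others. The set was chosen by the measured values of Ak4, which was low with Nr4a1 overexpression and high again with EGCG, so everything on Ak4 here is a description with no test. The other 6 genes came in as relatives of Ak4, with earlier results of these data known. Total RNA was sequenced in 9 libraries, 3 in each of 3 groups. The EGCG libraries came from cells treated with EGCG, the catechin epigallocatechin gallate from green tea, while overexpressing the orphan nuclear receptor Nr4a1; the OE libraries from cells overexpressing Nr4a1, and the CTRL libraries from untransfected cells. All were labelled batch 1. The labels give no EGCG dose, time or vehicle and no method of transfection. The CTRL cells were untransfected, so transfection and the overexpressed receptor cannot be told apart between OE and CTRL.

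Adenylate kinases catalyse the reversible conversion of ATP and AMP into a pair of ADP molecules, and so tie the level of AMP to that of ATP. The isoforms sit in different places: Ak1 and Ak5 in the cytosol, Ak3 and Ak4 in the mitochondrial matrix, and Ak6 in the nucleus. Ak3 uses GTP in place of ATP, and Ak4, its close relative, is known as a gene induced by low oxygen. Creatine kinases pass phosphate between ATP and creatine; Ckb is the brain-type cytosolic form and Ckmt1 the ubiquitous mitochondrial form. In beta cells the ratio of ATP to ADP sets whether the potassium channels that trigger insulin release are open, and adenylate and creatine kinases buffer that ratio.

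The promoters of 3 members are shown because they belong to the gene that defined the set, its matrix relative and the member that moved the other way. Each window is RefSeq sequence of GRCm38.p6, 300 bases long, with 250 bases before and 50 bases from the annotated start, written in the direction of transcription; the authors' processing notes name GRCm39, so these coordinates are those of the promoter table and not of the expression table. Capitals mark the cores ACGTG and GCGTG, which occur in hypoxia response elements, on either strand, so that GCGTG on the other strand reads CACGC and a palindromic CACGTG holds ACGTG on both strands. The first Ak4 window (chr4:101419071-101419370, plus strand) has its start 2 bases downstream of that of Ak4-202, the main transcript, and the second (chr4:101419453-101419752, plus strand) has its start 3 bases upstream of that of Ak4-204. The Ak3 window is chr19:29047912-29048211 on the minus strand and the Ckb window chr12:111672289-111672588 on the minus strand.
Ak4, upstream start: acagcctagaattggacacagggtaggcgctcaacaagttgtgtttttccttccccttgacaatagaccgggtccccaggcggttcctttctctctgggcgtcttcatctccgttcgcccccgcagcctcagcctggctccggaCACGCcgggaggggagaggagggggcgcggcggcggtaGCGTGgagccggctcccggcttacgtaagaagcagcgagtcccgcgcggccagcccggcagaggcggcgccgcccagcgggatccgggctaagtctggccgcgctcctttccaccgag
Ak4, downstream start: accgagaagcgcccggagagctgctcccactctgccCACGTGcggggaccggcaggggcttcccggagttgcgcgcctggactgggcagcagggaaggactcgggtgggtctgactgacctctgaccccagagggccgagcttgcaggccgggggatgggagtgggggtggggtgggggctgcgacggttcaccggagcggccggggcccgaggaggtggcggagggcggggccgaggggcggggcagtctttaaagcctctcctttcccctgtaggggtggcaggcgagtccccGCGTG
Ak3: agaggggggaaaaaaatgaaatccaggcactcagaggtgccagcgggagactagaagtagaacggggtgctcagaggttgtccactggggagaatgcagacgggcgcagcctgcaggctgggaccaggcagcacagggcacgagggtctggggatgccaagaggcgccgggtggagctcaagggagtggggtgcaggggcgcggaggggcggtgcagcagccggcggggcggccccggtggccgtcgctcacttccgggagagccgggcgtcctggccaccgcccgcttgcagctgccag
Ckb: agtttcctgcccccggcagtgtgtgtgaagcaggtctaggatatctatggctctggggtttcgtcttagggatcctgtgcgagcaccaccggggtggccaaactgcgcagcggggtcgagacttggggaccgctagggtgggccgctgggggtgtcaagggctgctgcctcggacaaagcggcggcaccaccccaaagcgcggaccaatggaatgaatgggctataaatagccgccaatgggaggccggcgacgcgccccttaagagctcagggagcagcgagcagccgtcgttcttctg

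The upstream Ak4 window held GCGTG 2 times, once on each strand, at 106 and 68 bases before the start and no ACGTG. The downstream window held 1 CACGTG, at 214 bases before the start, and 1 GCGTG, at position 46 with the start counted as 1. Neither core was found in the Ak3, Ckb or Ckmt1 windows, while Ak6 had 5 copies of GCGTG, of which 1 pair overlapped. Of the 4 Ak1 windows, 3 held 1 core each, GCGTG in 2 of them and ACGTG in the other. Among 32851 promoter windows of this length in the table, ACGTG was found in 19.6%, GCGTG in 32.4%, either core in 43.8% and at least 2 cores in 20.6%, so such matches are common. The element AAAGGTCA, which NR4A receptors bind as monomers, was searched on both strands. It was in none of the 13 windows found for 6 members, against 1.51% of all windows. A match or its lack describes these letters alone.

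The overexpressed gene followed the labels. Nr4a1 was at 46.25, 60.91 and 54.46 TPM in EGCG libraries, at 128.30, 122.52 and 165.18 TPM in OE libraries and at 0.63, 0.78 and 0.76 TPM in CTRL libraries, so EGCG and OE differed in the amount of Nr4a1 RNA as well as in the compound. TPM is a length-corrected share of a library's transcripts, from which read depth cannot be recovered, so it is unknown here and no counting interval can be given. Of 10 beta cell markers, 9 were at 1 TPM or more in every library, the exception being the glucose transporter Slc2a2. Their summed level was 4812 to 5150 TPM in EGCG libraries, 6625 to 6930 TPM in OE libraries and 4866 to 4956 TPM in CTRL libraries, and its part in the results was not tested. Single markers moved apart within this sum. With overexpression the means of Mafa, Chga and Slc2a2 were below control and those of the others above it. With EGCG the means of Ins1, Pdx1, Mafa, Nkx6-1, Nkx2-2 and Chga were below control and those of the others above it. Mafa averaged 33.3 TPM with EGCG, 38.7 TPM with overexpression and 62.9 TPM in control. For Ins1 these means were 724.4, 2030 and 784.9 TPM. None of 6 skeletal muscle, 5 fibroblast and 5 leukocyte markers reached 1 TPM in every library, and Tnnt3, a muscle troponin, was listed at 0 in all 9. Of 5 neuronal markers, Snap25 and Map2 did, and the summed level of all 5 was 68.3 to 85.9 TPM with EGCG, 74.1 to 81.2 TPM with overexpression and 76.7 to 94.9 TPM in control. Nothing in the labels says that triplicates came from separate cultures, so a p-value here reflects only how these libraries vary, which may be technical.

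Ak4 was nearly absent with Nr4a1 overexpression alone. It stood at 14.37, 12.32 and 14.12 TPM in EGCG libraries, at 0.42, 0.67 and 0.11 TPM in OE libraries and at 15.51, 15.29 and 14.65 TPM in CTRL libraries. The OE libraries were all under 1 TPM and lay apart from both other groups, and all 3 EGCG libraries were below the lowest CTRL library. By group means, 13.6 ± 1.12 TPM with EGCG, 0.40 ± 0.281 TPM with overexpression and 15.2 ± 0.447 TPM in control (SD, n = 3 each), overexpressing cells had 2.64% of the control level and EGCG-treated cells 89.8% of it. On the log2(TPM + 1) scale, used for every difference here and understating changes of low values, the difference was -3.55 ± 0.13 (SE) for OE minus CTRL, 3.40 ± 0.13 for EGCG minus OE and -0.15 ± 0.13 for EGCG minus CTRL. With a pseudocount of 0.1 in place of 1, OE minus CTRL was -5.12 and EGCG minus OE 4.96. In RNA from whole cultures, fewer cells with the transcript and less of it per cell cannot be told apart.

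**Figure D1:**
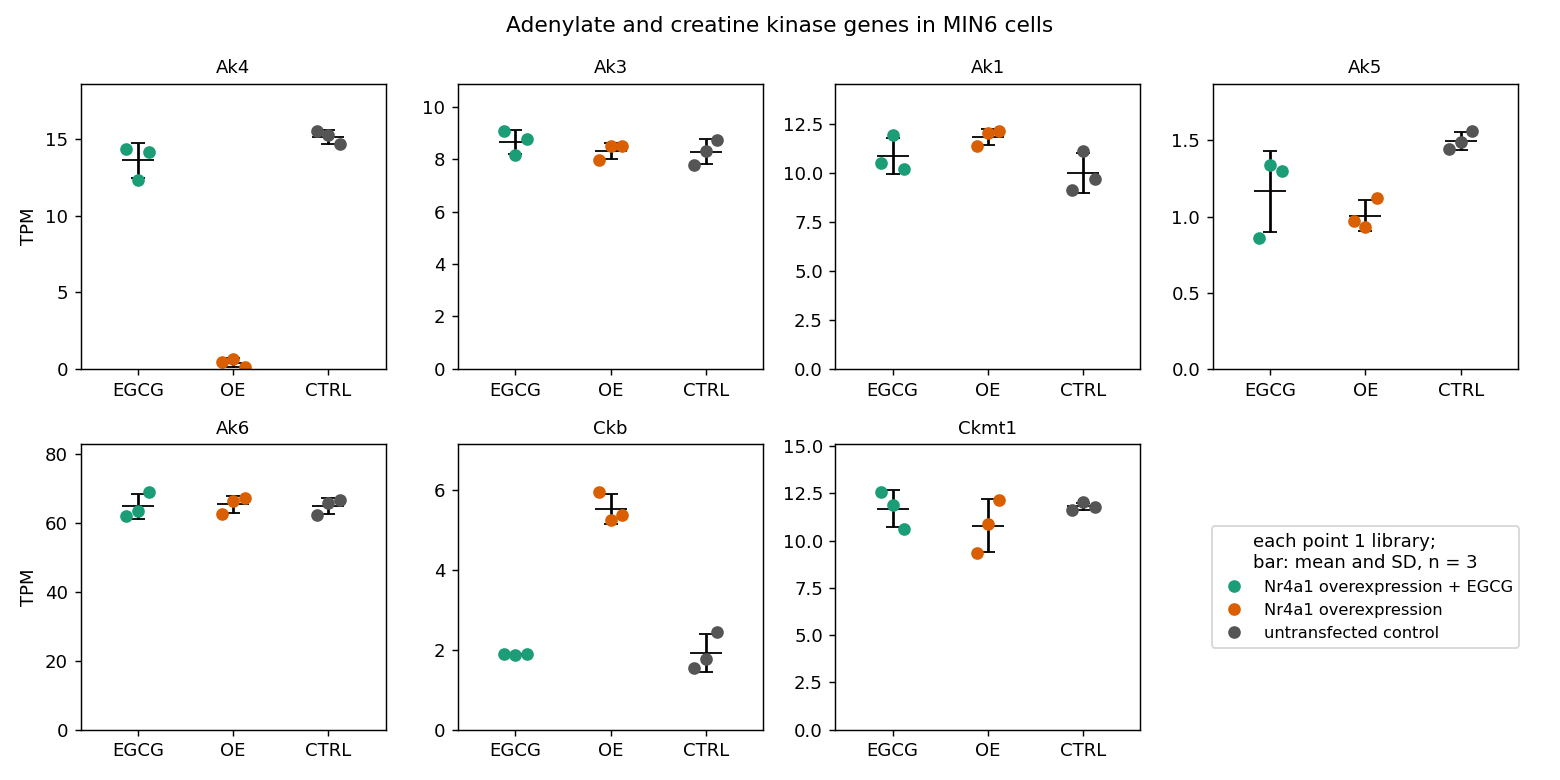
TPM (vertical axis, from 0) of the 7 genes in EGCG, OE and CTRL libraries; each point is a library and bars are the mean and SD of 3. Ak4 is under 1 TPM in the 3 OE libraries and between 12.32 and 15.51 TPM in the other 6, Ckb is at 5.25 TPM or more in OE libraries alone, and Ak3 and Ak6 overlap across all 3 groups.

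All 7 annotated Ak4 transcripts were listed above 0 in some library, and the low level in OE libraries was shared by those that carried most of the RNA. Transcript levels are estimates made by RSEM, which shares out reads between overlapping transcripts. Ak4-202, protein-coding and the main form, was at 9.56, 8.21 and 10.29 TPM with EGCG, at 0.39, 0.38 and 0.05 TPM with overexpression and at 4.67, 6.91 and 8.11 TPM in control. The EGCG libraries were all above the highest control library for this form. Ak4-201, whose start lies 42 bases further upstream, was at 1.76, 1.69 and 0 TPM with EGCG, listed at 0 in all 3 OE libraries, and at 4.35, 3.32 and 2.50 TPM in control. Ak4-204, the short form from the downstream start, was at 1.36, 0 and 0 TPM with EGCG, at 0, 0.29 and 0.03 TPM with overexpression and at 3.08, 2.62 and 2.10 TPM in control. Both of these forms were below every control library in every EGCG library, although the gene as a whole came to 89.8% of control. Ak4-202 made up on average 68.7% of Ak4 with EGCG and 43.6% in control, and Ak4-204 made up 3.15% and 17.1%. The split was uneven between libraries of 1 group, and it comes from the samples that chose Ak4, so it is given with no test.

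**Figure D2:**
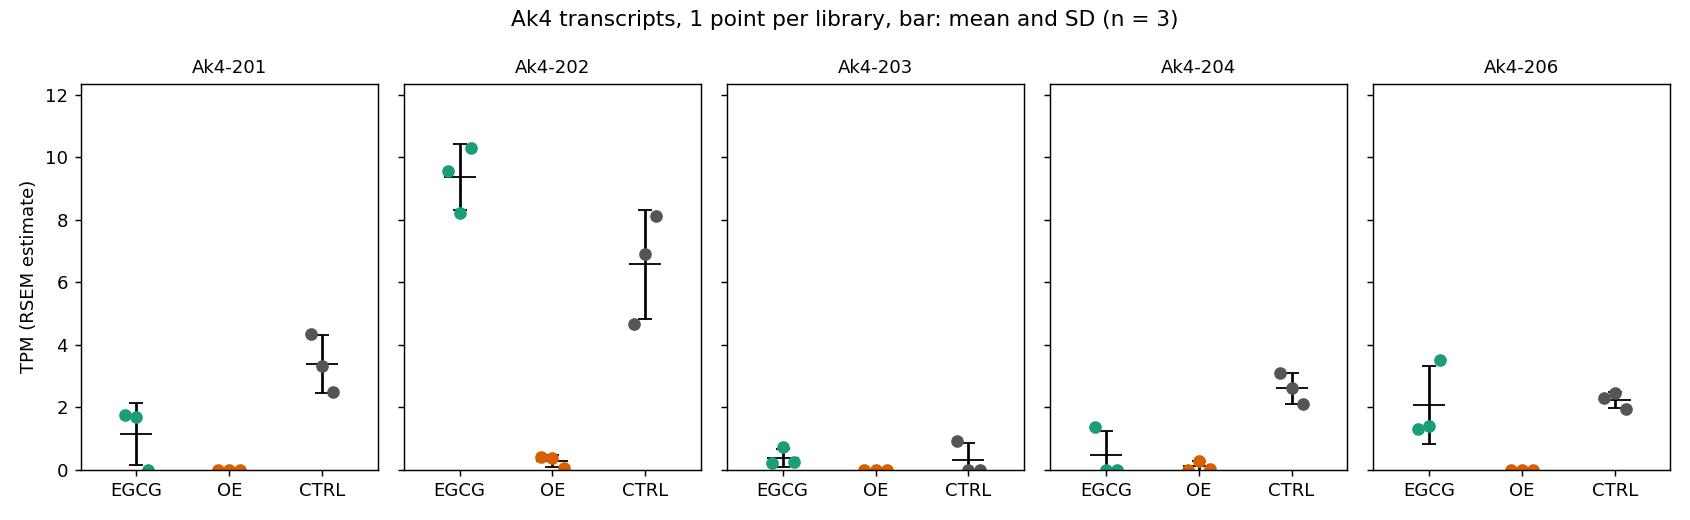
TPM (vertical axis, common to the panels) of the 5 Ak4 transcripts with the most RNA, by group; points are libraries and bars the mean and SD of 3. In OE libraries no form exceeds 0.39 TPM, while in EGCG libraries Ak4-202 is between 8.21 and 10.29 TPM and Ak4-201 and Ak4-204 are below their control values.

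Ak3, the other kinase of the matrix, stayed close to 8 TPM in the libraries where Ak4 was low. It was at 9.07, 8.17 and 8.78 TPM with EGCG, at 7.97, 8.49 and 8.50 TPM with overexpression and at 7.79, 8.33 and 8.75 TPM in control. The 3 groups overlapped. The difference of log2(TPM + 1) between OE and CTRL was 0.0054 (95% interval -0.13 to 0.14; adjusted p = 0.945), between EGCG and OE 0.05 (-0.08 to 0.19; adjusted p = 0.484) and between EGCG and CTRL 0.06 (-0.08 to 0.19; adjusted p = 0.521). Scaled to nuclear protein-coding genes alone, Ak3 was called higher in EGCG than in OE, by 0.19 (adjusted p = 0.0352). Summed, the matrix pair Ak3 and Ak4 came to 22.3 ± 1.57 TPM with EGCG, 8.72 ± 0.397 TPM with overexpression and 23.4 ± 0.164 TPM in control (SD, n = 3 each). Ak4 was 60.1% to 61.7% of the pair's RNA in EGCG libraries, 1.28% to 7.31% in OE libraries and 62.6% to 66.6% in CTRL libraries.

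**Figure D3:**
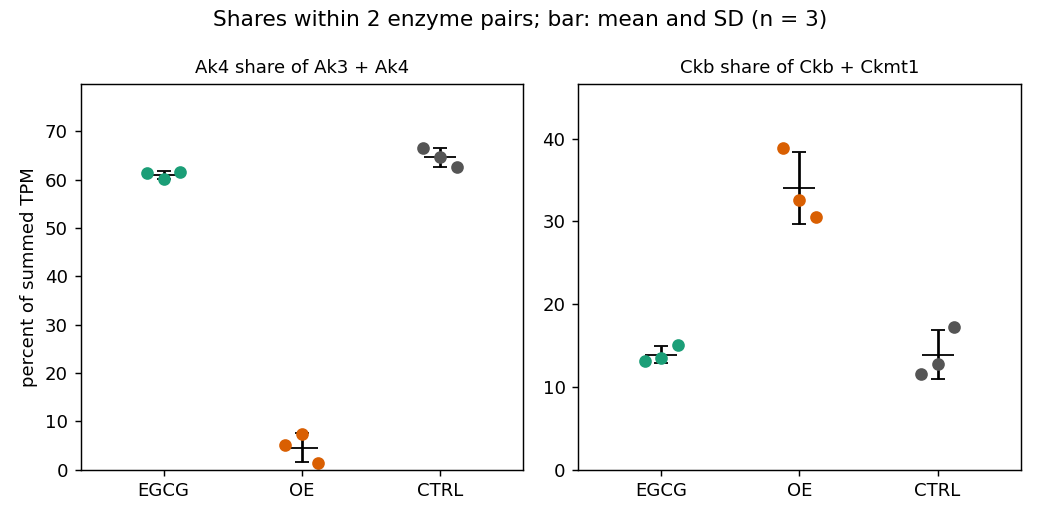
Share of the summed TPM (percent, vertical axis) held by Ak4 within Ak3 plus Ak4 (left) and by Ckb within Ckb plus Ckmt1 (right), by group; points are libraries and bars the mean and SD of 3. In OE libraries Ak4 holds at most 7.31% of its pair and Ckb at least 30.6% of its pair.

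Ckb, the cytosolic creatine kinase, was higher in OE libraries than in both other groups. It was at 1.90, 1.86 and 1.88 TPM in EGCG libraries, at 5.94, 5.25 and 5.36 TPM in OE libraries and at 1.53, 1.76 and 2.45 TPM in CTRL libraries. No OE library overlapped with another group, while the EGCG values lay inside the control range. The mean with overexpression was 2.88 times that of control (log2 difference 1.17 ± 0.106 SE; limma, Benjamini-Hochberg adjusted p = 2.18e-05), and with EGCG it was 34.1% of that with overexpression (log2 difference -1.18 ± 0.106; adjusted p = 3.11e-05). These comparisons share the OE libraries. Between EGCG and CTRL the difference was -0.0041 (95% interval -0.24 to 0.24; adjusted p = 0.985). The change sat in Ckb-201, the transcript that starts at the RefSeq start shown above, which averaged 1.72 TPM with EGCG, 5.13 TPM with overexpression and 1.64 TPM in control. The Ckb calls held under every alternative run.

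Ckmt1, the mitochondrial creatine kinase, passed the test in none of the comparisons as summed over all its transcripts. Its levels were 12.58, 11.91 and 10.61 TPM with EGCG, 9.34, 10.89 and 12.17 TPM with overexpression and 11.65, 12.03 and 11.78 TPM in control. OE libraries reached both the lowest and nearly the highest of these values. The log2 difference was -0.13 ± 0.0906 (SE) between OE and CTRL (adjusted p = 0.254), 0.11 ± 0.0906 between EGCG and OE (adjusted p = 0.332) and -0.02 ± 0.0906 between EGCG and CTRL (adjusted p = 0.915). Protein-coding transcripts alone gave a fall of Ckmt1 with overexpression (-0.27; adjusted p = 0.000778) and a higher level with EGCG than with overexpression (0.20; adjusted p = 0.00503). The second call was also made with nuclear protein-coding genes alone (0.25; adjusted p = 0.0408). The main coding form, Ckmt1-201, was at 8.78, 9.04 and 8.63 TPM with EGCG, 6.50, 7.17 and 7.34 TPM with overexpression and 9.75, 9.81 and 8.12 TPM in control, with no overlap of OE with either group. The retained-intron form Ckmt1-210 was at 2.04, 1.35 and 0 TPM with EGCG, 0, 2.15 and 2.40 TPM with overexpression and 0, 0.39 and 1.30 TPM in control, and it is part of the gene's sum. Ckb made up 13.9% ± 1.02 of the Ckb and Ckmt1 pair with EGCG, 34.0% ± 4.34 with overexpression and 13.9% ± 2.96 in control (SD, n = 3 each).

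The cytosolic adenylate kinases Ak1 and Ak5 were called between OE and CTRL, and the Ak1 call depended more on the setting. Ak1 was at 10.50, 11.91 and 10.18 TPM with EGCG, at 11.37, 12.03 and 12.11 TPM with overexpression and at 9.11, 11.10 and 9.69 TPM in control. OE libraries lay above CTRL libraries by 0.23 ± 0.0797 on the log2 scale (adjusted p = 0.0318), and EGCG libraries overlapped with both. EGCG minus OE was -0.12 (adjusted p = 0.246) and EGCG minus CTRL 0.11 (adjusted p = 0.334). The Ak1 call was lost with median-ratio scaling (0.12; adjusted p = 0.217), quantile normalization (0.10; adjusted p = 0.334), nuclear protein-coding genes alone (0.15; adjusted p = 0.109) and no filter (adjusted p = 0.0556). It was also lost without CTRL replicate 1 (adjusted p = 0.107) or 3 (0.0717) and without OE replicate 2 (0.0837) or 3 (0.089). The call held in the other 11 alternatives, among them protein-coding transcripts alone (0.25; adjusted p = 0.00608). The main form, Ak1-202, was at 8.98 to 10.07 TPM with EGCG, 10.64 to 11.56 TPM with overexpression and 8.80 to 9.46 TPM in control. For this form OE overlapped with neither group.

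Ak5, an isoform known from brain, was at 0.86, 1.34 and 1.30 TPM with EGCG, at 0.97, 0.93 and 1.12 TPM with overexpression and at 1.44, 1.49 and 1.56 TPM in control. Every CTRL library was above all others. Ak5 fell with overexpression by 0.32 ± 0.0966 on the log2 scale (adjusted p = 0.0188). Its mean with overexpression was 67.3% of control, and with a pseudocount of 0.1 the difference was -0.53 (adjusted p = 0.0245). The call was lost without OE replicate 1 (adjusted p = 0.0545) or OE replicate 2 (adjusted p = 0.0612). It held in the other 17 alternatives, each of the scalings included. EGCG differed from OE by 0.10 (adjusted p = 0.39) and from CTRL by -0.21 (adjusted p = 0.152). Ak5 overlaps Zzz3 on the opposite strand, which averaged 5.24 TPM with EGCG, 8.95 TPM with overexpression and 5.91 TPM in control, and the strand setting used to count is not given. Chemoreceptor genes (olfactory, vomeronasal and trace amine-associated receptors, pseudogenes included) also had more signal in control. Over 1753 genes the mean per gene was 0.0063 TPM with EGCG, 0.0029 TPM with overexpression and 0.054 TPM in control. Their part in the Ak5 difference was not tested.

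Ak6, the nuclear isoform, had the highest level of the 7 in every library, 62.2 to 69.0 TPM with EGCG, 62.7 to 67.4 TPM with overexpression and 62.3 to 66.7 TPM in control. The groups overlapped, with log2 differences of 0.01 for OE minus CTRL (95% interval -0.12 to 0.14; adjusted p = 0.876), -0.01 for EGCG minus OE (-0.14 to 0.12; adjusted p = 0.864) and -0.0017 for EGCG minus CTRL (adjusted p = 0.988). With quantile normalization these turned to -0.16 for OE minus CTRL (adjusted p = 0.0421) and 0.20 for EGCG minus OE (adjusted p = 0.0176). Ak6 shares its locus and strand with Taf9, a subunit of the general transcription factor TFIID. Of the exon bases of Ak6-202, the form with the most RNA, 91.6% also belong to Taf9 transcripts, and of those of Ak6-205, 94.4%. Only Ak6-201 is largely its own, with 7.2% shared, and it was at 13.85 to 14.93 TPM with EGCG, 11.24 to 13.05 TPM with overexpression and 10.85 to 11.43 TPM in control. All EGCG libraries were above the others for Ak6-201. Ak6-202 was at 42.05 to 46.13 TPM with EGCG, 42.70 to 43.89 TPM with overexpression and 46.57 to 52.14 TPM in control. Ak6-205 was at 0.34 to 5.83 TPM with EGCG, 7.40 to 11.12 TPM with overexpression and 0 to 7.31 TPM in control. The even sum of Ak6 thus held forms that differed between groups, and these differences were not tested. The level given for Ak6 is therefore uncertain. Taf9 itself was listed at 8.49 ± 1.68 TPM with EGCG, 9.05 ± 0.974 TPM with overexpression and 13.2 ± 1.1 TPM in control (SD, n = 3 each).

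Among the 6 members other than Ak4, 2 rose (Ckb and Ak1), 1 fell (Ak5) and 3 did not pass the test with overexpression, with a median log2 difference of 0.0084. Over all 11950 genes tested in this comparison, 59.5% were called, 38.2% as higher and 21.3% as lower, with a median of 0.095, so 3 of 6 called members is no more than the background. Between EGCG and OE only Ckb was called among the 6, and it was lower, against 53.0% of all genes, 18.8% higher and 34.1% lower; the members' median was 0.02 and that of all genes -0.088. None of the 6 was called between EGCG and CTRL, where 18.2% of all genes were, 11.1% higher and 7.10% lower. At an unadjusted p under 0.05 none of the 6 passed there either, the lowest being that of Ak5 at 0.0557. The direction of calls over all genes moved with the scaling and, between OE and CTRL and between EGCG and CTRL, with the filter. For OE against CTRL, 4561 genes were higher and 2545 lower as deposited, 3541 and 3547 by median-ratio scaling and 3559 and 3389 by quantiles. For EGCG against OE, 2250 were higher and 4080 lower as deposited, 3054 and 3082 by median ratios, 2816 and 3101 by quantiles and 3234 and 2568 with nuclear protein-coding genes alone, which shifted the median of all genes to 0.03. For EGCG against CTRL, 1323 were higher and 849 lower as deposited, 2337 and 674 with nuclear protein-coding genes alone and 1212 and 1204 with quantile normalization.

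**Figure D4:**
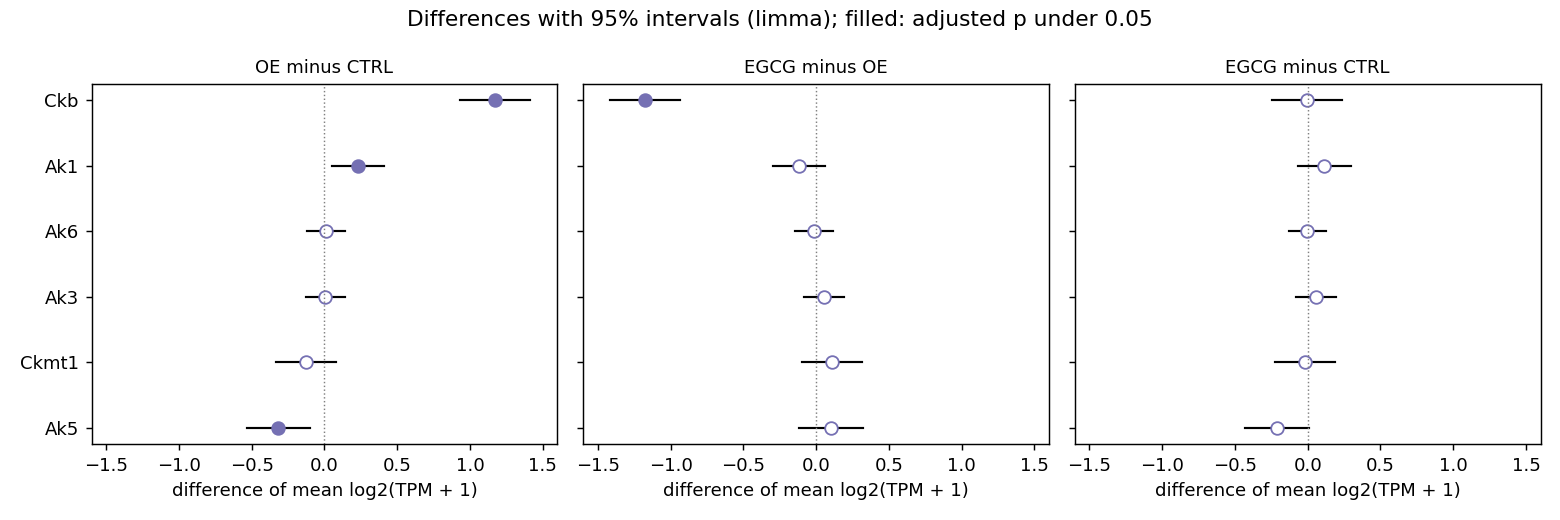
Difference of mean log2(TPM + 1) (horizontal axis) with its 95% interval from limma for the 6 members other than Ak4, in 3 comparisons; filled points had an adjusted p under 0.05. Ckb lies at 1.17 for OE minus CTRL and at -1.18 for EGCG minus OE, and the other genes within 0.32 of 0.

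Of the other genes of both families, 5 were below the filter and were not tested. Ak7, Ak8 and Ak9, known from cilia and other places, stayed at or under 0.22 TPM in every library. Ckm, the muscle form, was at 0.22 to 0.33 TPM with EGCG, 0.29 to 0.38 TPM with overexpression and 0.23 to 0.35 TPM in control, and Ckmt2, the mitochondrial form of muscle, at or under 0.04 TPM throughout.

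The order of levels among the 7 differed with overexpression in the place of Ak4, which was last, and in Ak1 and Ckmt1, which changed places but overlapped in OE libraries. With EGCG the order by mean was Ak6, Ak4, Ckmt1, Ak1, Ak3, Ckb and Ak5, and Ak4 overlapped with Ckmt1 and Ckmt1 with Ak1. With overexpression it was Ak6, Ak1, Ckmt1, Ak3, Ckb, Ak5 and Ak4. In control it was Ak6, Ak4, Ckmt1, Ak1, Ak3, Ckb and Ak5, where Ckb and Ak5 overlapped, the highest Ak5 library being at 1.56 TPM and the lowest Ckb library at 1.53 TPM. The first place of Ak6 rests on forms that share most of their exon bases with Taf9, so it is uncertain. Ak6-201 alone was at 10.85 to 11.43 TPM in control, where Ak4 was at 14.65 to 15.51 TPM. The summed level of the 4 creatine kinase genes was 13.9 ± 1.02 TPM with EGCG, 16.7 ± 1.15 TPM with overexpression and 14.0 ± 0.545 TPM in control (SD, n = 3 each).

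Genes that make creatine or use the products of adenylate kinase were counted from lists. Gatm, which makes the precursor of creatine, was at 0.58, 0.44 and 0.62 TPM with EGCG, at 3.51, 2.97 and 2.99 TPM with overexpression and at 0.56, 0.45 and 0.65 TPM in control. It reached the filter only through the OE libraries, so a difference there was built in and it supports no count. The creatine transporter Slc6a8 was the only other tested gene of that list, and it was not called with overexpression (-0.09; adjusted p = 0.315) or between EGCG and OE (0.16; adjusted p = 0.0951). EGCG minus OE passed with median-ratio scaling (0.24; adjusted p = 0.0265) and with nuclear protein-coding genes alone (0.27; adjusted p = 0.0116).

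Of 10 other kinases of nucleoside mono- and diphosphates, 5 rose, 2 fell and 3 did not pass the test with overexpression (median 0.17), beside 59.5% of all tested genes called; with median-ratio scaling 4 rose and 3 fell (median 0.06). Between EGCG and OE 4 were lower and none higher (median -0.09), beside 53.0%, while 1 was higher with median-ratio scaling and 3 with nuclear protein-coding genes alone. Nme1, a nucleoside diphosphate kinase, averaged 24.4 ± 1.19 TPM with EGCG, 39.3 ± 2.2 TPM with overexpression and 22.0 ± 2.13 TPM in control (log2 difference OE minus CTRL 0.81; adjusted p = 2.63e-05). Nme6 was at 3.33 ± 0.159 TPM with EGCG, 5.51 ± 0.75 TPM with overexpression and 2.43 ± 0.335 TPM in control. Nme6 was also the only gene of this list called between EGCG and CTRL (0.34; adjusted p = 0.0419), a call lost without CTRL replicate 1 or 2, OE replicate 2 or any EGCG replicate (adjusted p from 0.0619 to 0.119). It was also lost with a replicate block (adjusted p = 0.0851), with only those groups in the fit (0.0618), without the filter (0.0561) and by quantiles (0.0501). Nme2 (0.59) and Dtymk, thymidylate kinase (0.54), were higher in OE than in CTRL too. All 4 named were lower in EGCG than in OE, Nme2 not with quantile normalization. Other scalings added calls between EGCG and CTRL. Nme2 was called higher with nuclear protein-coding genes alone (0.30, adjusted p = 0.0159) and by quantiles (0.25, adjusted p = 0.039). Cmpk1 was called lower with median-ratio scaling (-0.36, adjusted p = 0.0446). Cmpk1 was also 1 of the 2 that fell with overexpression (-0.39; adjusted p = 0.0181). With protein-coding transcripts alone that difference turned to 0.14 and was not called (adjusted p = 0.0581). The call was also lost without CTRL replicate 1 or 2 or OE replicate 2 or 3 (adjusted p from 0.0544 to 0.0644).

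AMP-activated protein kinase, the sensor of AMP, was represented by 9 tested genes, of which 4 rose, 1 fell and 4 did not pass the test with overexpression (median 0.23), beside 59.5% of all tested genes called. Both median-ratio scaling and quantile normalization gave 2 higher, 1 lower and 6 not called (medians 0.12 and 0.10). Between EGCG and OE 5 were lower and none higher (median -0.21), beside 53.0%. Its catalytic subunit Prkaa1 averaged 21.3 ± 0.355 TPM with EGCG, 25.4 ± 1.05 TPM with overexpression and 19.5 ± 0.967 TPM in control. The regulatory subunits Prkag1 and Prkab1 were higher in OE than in CTRL by 0.50 and 0.29 (adjusted p = 0.00116 and 0.00533), the Prkab1 call being lost with median-ratio scaling (adjusted p = 0.0558) and quantile normalization (adjusted p = 0.103). Prkab1 was at 18.7 ± 1.74 TPM with EGCG, 28.2 ± 1.37 TPM with overexpression and 22.9 ± 0.0819 TPM in control, and the list's call between EGCG and CTRL was Prkab1, which was lower (-0.28; adjusted p = 0.0241), though not without CTRL replicate 1 or 2 or EGCG replicate 1 or 3 (adjusted p from 0.0532 to 0.0775) or with only those groups in the fit (0.0625). Stk11, the kinase that activates AMP-activated protein kinase, fell with overexpression (-0.39; adjusted p = 0.00298), with 12.9 ± 1.35 TPM with EGCG, 11.5 ± 0.604 TPM with overexpression and 15.5 ± 1.25 TPM in control. Its partner Cab39 differed between EGCG and OE by -0.17 (adjusted p = 0.0226), a call lost with each of the other scalings and without EGCG replicate 2 or 3 or OE replicate 1 (adjusted p from 0.055 to 0.0833). The scalings also changed the list's counts between EGCG and OE. They were 2 higher and 2 lower by quantiles and with nuclear protein-coding genes alone. With median-ratio scaling they were 2 higher and 3 lower, Stk11 being among the higher ones (0.24, adjusted p = 0.0268). Between EGCG and CTRL, Stk11 was called lower with median-ratio scaling (-0.26, adjusted p = 0.0423), by quantiles (0.0439) and with protein-coding transcripts alone (0.00939). Prkaa1 was called higher there with nuclear protein-coding genes alone (0.18, adjusted p = 0.0212).

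Of the genes of AMP and adenosine turnover, 7 were tested. Adssl1, an adenylosuccinate synthase below 1 TPM in every OE library, reached the filter only through EGCG and control libraries, so it is left out of the counts. Of the other 6, 5 were higher and 1 lower with overexpression (median 0.62), beside 59.5% of all tested genes called, and 1 was higher and 5 were lower between EGCG and OE (median -0.41), beside 53.0%. Of these, Aprt was no longer called between EGCG and OE with quantile normalization (-0.21, adjusted p = 0.122). Nt5c2, a cytosolic nucleotidase, was at 9.36 ± 0.792 TPM with EGCG, 21.6 ± 0.442 TPM with overexpression and 9.06 ± 0.474 TPM in control (OE minus CTRL 1.17 ± 0.0647; adjusted p = 1.78e-06). Adsl, whose enzyme releases AMP in purine synthesis, was at 7.82 ± 0.323 TPM with EGCG, 14.8 ± 0.127 TPM with overexpression and 7.51 ± 0.341 TPM in control (0.90 ± 0.0512; adjusted p = 2.08e-06). Adk, the kinase that turns adenosine into AMP, went the other way. It was at 70.66, 69.47 and 61.77 TPM with EGCG, at 39.45, 39.35 and 32.80 TPM with overexpression and at 58.32, 65.19 and 72.30 TPM in control (OE minus CTRL -0.79; adjusted p = 0.000141; EGCG minus OE 0.84; adjusted p = 0.000136). Ampd2, an AMP deaminase, was higher in OE than in CTRL by 0.62 (adjusted p = 0.000206). Adss, the enzyme before Adsl in the same route, was at 12.6 ± 0.215 TPM with EGCG, 17.0 ± 0.242 TPM with overexpression and 14.2 ± 0.419 TPM in control and was the list's call between EGCG and CTRL (-0.17; adjusted p = 0.0326), a call lost without CTRL replicate 1 or 2, any OE replicate or any EGCG replicate (adjusted p from 0.052 to 0.1), with a replicate block (0.0812), with only those groups in the fit (0.0935) and with nuclear protein-coding genes alone (0.107). The Adss call between OE and CTRL was lost with quantile normalization. Between EGCG and CTRL, Ampd2 was called higher with nuclear protein-coding genes alone (0.30, adjusted p = 0.0214) and with protein-coding transcripts alone (0.25, adjusted p = 0.0149).

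Adenine nucleotides cross the mitochondrial membranes through carriers and the voltage-dependent anion channels, of which 8 genes were tested. With overexpression 6 rose and 2 fell (median 0.30), beside 59.5% of all tested genes called, and between EGCG and OE 2 were higher and 6 lower (median -0.39), beside 53.0%. The first count was 4 higher, 2 lower and 2 not called with median-ratio scaling (median 0.20), with nuclear protein-coding genes alone, without the filter and with only those groups in the fit, and the median was 0.19 by quantiles. Slc25a5 and Slc25a4 sit in the inner membrane and exchange ADP for ATP. Slc25a5 averaged 99.9 ± 7.73 TPM with EGCG, 158.6 ± 4.32 TPM with overexpression and 94.4 ± 7.29 TPM in control (OE minus CTRL 0.74; adjusted p = 3.49e-05). Slc25a4 averaged 73.2 ± 3.38 TPM with EGCG, 109.4 ± 2.38 TPM with overexpression and 75.6 ± 1.78 TPM in control (0.53; adjusted p = 2.98e-05). Vdac3, an anion channel of the outer membrane, was higher in OE than in CTRL by 0.37 (adjusted p = 0.00016). Slc25a23, a carrier that exchanges ATP-Mg for phosphate, fell with overexpression (-0.78; adjusted p = 9.34e-05) and was at 7.89 ± 0.76 TPM with EGCG, 4.64 ± 0.0781 TPM with overexpression and 8.75 ± 1.11 TPM in control. None of the 8 was called by limma between EGCG and CTRL, with 1 at an unadjusted p under 0.05. That gene, Slc25a24, was called lower with median-ratio scaling (-0.26, adjusted p = 0.0366), quantile normalization (0.0257) and nuclear protein-coding genes alone (0.0495). It was also called with protein-coding transcripts alone (0.0342) and no mean-variance trend (0.0416). Vdac2 was called lower there without CTRL replicate 3 (-0.22, adjusted p = 0.0226). Between EGCG and OE, quantile normalization lost the Vdac2 call (-0.14, adjusted p = 0.141).

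**Figure D5:**
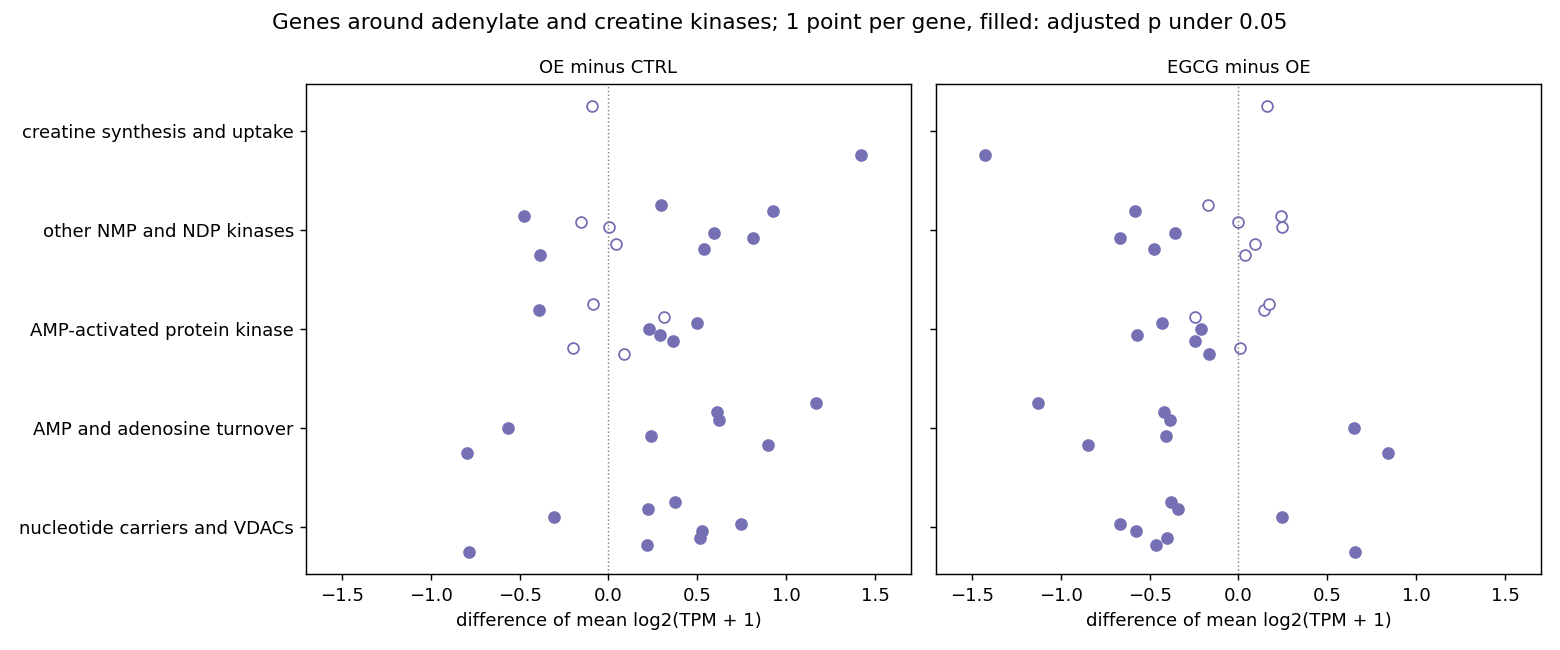
Difference of mean log2(TPM + 1) (horizontal axis) of each tested gene in 5 lists (rows), for OE minus CTRL (left) and EGCG minus OE (right), which share the OE libraries; filled points had an adjusted p under 0.05. The point furthest right on the left panel is Gatm at 1.42, followed by Nt5c2 at 1.17, and Adk and Slc25a23 are furthest left at -0.79 and -0.78. Gatm reached the filter only through OE libraries, and Adssl1, also plotted, only through EGCG and control libraries. Their differences were built in and enter no count.

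Across the 9 libraries, the 8 protein-coding genes of 10760 whose log2(TPM + 1) was most like that of Ak4 were Prelid2, Pdk1, Mxi1, Kbtbd11, Ndrg1, Bnip3l, Pygl and Plod2, with Pearson r between 0.9974 and 0.9987. These values describe profiles set by 3 groups of libraries, with 1 group low. Prelid2 was at 21.6 ± 1.5 TPM with EGCG, 1.63 ± 0.51 TPM with overexpression and 22.1 ± 0.179 TPM in control, and Pdk1 at 55.4 ± 1.1 TPM with EGCG, 5.31 ± 1.2 TPM with overexpression and 59.3 ± 2.55 TPM in control. In both, the OE libraries were the low ones. The genes most like Ckb were Emc3, Prps1l3 and Tbrg1 (r from 0.9945 to 0.9951), and Emc3 was at 14.2 ± 0.366 TPM with EGCG, 21.1 ± 0.104 TPM with overexpression and 14.3 ± 0.991 TPM in control. For Ak1 they were Snx12, Rnf10 and Katnal1 (r from 0.9439 to 0.9529) and for Ak5 Hdac8, Spred2 and Gng12 (r from 0.9387 to 0.9517). For Ak3 (Zfp653, Plbd2 and Mterf2), Ak6 (B3gat3, Rhoc and Fbf1) and Ckmt1 (Tmem25, Clpb and Zfp874a) the highest r were 0.919, 0.8769 and 0.9263. Each is a highest value picked from 10760 genes over 9 libraries, where unrelated genes can also reach a high r. No relation between the named genes and the members was tested. Between members, r with Ak4 was -0.976 for Ckb, -0.674 for Ak1, 0.598 for Ak5, 0.454 for Ckmt1, 0.181 for Ak3 and -0.126 for Ak6.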

How the data were processed

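Per the labels' protocols, RNeasy columns were used for total RNA, and the library kit was a stranded one for total RNA. The authors deposited TPM per Ensembl transcript for 9 libraries; per the submitters' processing notes they used bcl2fastq 2.20, FastQC 0.11.9, cutadapt 2.8, STAR 2.7.1a, RSEM 1.2.31 and GRCm39, and no annotation release, strand setting or filter is stated there. TPM is relative to the library's sum, so abundant RNAs that rise lower all others. Nuclear protein-coding genes held 20.25% to 20.73% of TPM in EGCG libraries, 22.60% to 23.08% in OE libraries and 21.23% to 21.75% in CTRL libraries. These shares did not overlap between groups, and the scaling to nuclear protein-coding genes alone makes them equal.

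Transcripts were joined by identifier to GENCODE M21, an annotation of the older build used for gene membership, exon overlap and biotypes. Of 142435 identifiers 138346 (97.13%) matched; the others held 18.0% to 20.6% of a library's TPM. TPM was summed per gene, and those reaching 1 TPM in 3 or more libraries were tested with limma 3.58.1 in R 4.3.3 (mean-variance trend, two-sided) on log2(TPM + 1), all 9 libraries in a single fit, with Benjamini-Hochberg adjusted p under 0.05 over all 11950 genes; every adjusted p is from this fit or its alternatives. The fit was also run on simulated data with few changed genes and independent noise. That setting differs from these data, where 59.5% of genes were called between OE and CTRL, so it cannot vouch for the calls here. Count models were not used on TPM. Promoters came from RefSeq (GRCm38.p6), matched by symbol for 6 of the 7 members. Python 3.11.15, pandas 2.3.3 and matplotlib 3.10.9 were used.

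The members and lists were chosen with earlier results of these data known. The genes named are the 7 members, other genes of both families, from each list up to 4 called genes with the smallest adjusted p in a comparison, the 8 genes most like Ak4 and the 3 most like each other member, and Nr4a1. Taf9, Zzz3, Slc6a8, Adssl1, Slc25a24, Vdac2, Aprt, Cmpk1 and the chemoreceptor genes were added after values were seen. Alternatives covered the pseudocount, the filter, 3 scalings, protein-coding transcripts, the samples in the fit, the trend, a replicate block and leaving out each library. An item of the lists is not reported here.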

Additional observations from a re-analysis of the deposited data

How the results depend on the processing

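The calls of Ckb in both comparisons with OE, and its lack of a call between EGCG and CTRL, held under every alternative run. Without the filter, 12395 genes were called between OE and CTRL, against 7106, and 4775 between EGCG and CTRL, against 2172, over 39165 genes. The balance turned with it, to 4597 higher and 7798 lower for OE against CTRL and 1212 higher and 3563 lower for EGCG against CTRL. Between EGCG and CTRL, 895 were called with only those groups in the fit and 1221 with a replicate block. Between EGCG and OE, 6797 were called with only those groups in the fit, against 6330. Both settings leave fewer degrees of freedom, and the cause of the changed counts was not tested. Leaving out a library gave 6286 to 7263 calls for OE against CTRL, 5411 to 6787 for EGCG against OE and 735 to 3239 for EGCG against CTRL, where the count was 3239 without CTRL replicate 3, 988 and 974 without CTRL replicates 1 and 2, and 735 and 1246 without EGCG replicates 1 and 2. Ak6 turned sign with quantile normalization, to -0.16 for OE minus CTRL and 0.20 for EGCG minus OE, and the cause was not tested. The Ak4 difference reached -5.12 and 4.96 with a pseudocount of 0.1 and -4.17 and 4.02 with 0.5, since the OE values lie below the pseudocount of 1.

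Replicate numbers carry no stated pairing. Deviations of same-numbered libraries from their group means correlated at -0.021 to 0.214. These values cannot tell whether same-numbered libraries shared a culture or handling. The replicate block gave 6723 calls for OE against CTRL and 5882 for EGCG against OE, and among the members it changed no call. TPM carries no depth, so the limit that depth sets on low genes such as Ak5 is unknown.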
